A study of Mus musculus with 12 samples.

Results

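The genes described here are 10 members of the TGF-beta pathway, the ligands Tgfb1 and Tgfb3, the receptors and co-receptors Tgfbr1, Tgfbr2, Tgfbr3 and Eng, the signal transducer Smad3, and the inhibitors Smad7, Ski and Skil. They were found by gene symbol and read by Ensembl identifier among the 55414 gene records of the count table. All 10 had counts, and all 10 passed the filter on low counts over the 12 libraries, as did 15475 genes in all. The members were chosen by name with the levels and fold changes of these same libraries in view, and the rule does not say which of these values weighed. Every contrast was therefore treated as used by the rule, and the members' levels and fold changes are given as a description. Where the number of members past a threshold is printed beside the share of all genes, nothing is read from it in any comparison.

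RNA sequencing was performed on CD4+ T cells from the spleens of male wild-type BALB/c mice at 18 weeks of age, in 4 groups of 3 libraries. In the LIP group, a silk ligature around the second maxillary molars had induced periodontitis for 14 days, and in the CTL group mice were anesthetized without a ligature. Cells of both groups were isolated by negative magnetic selection, which leaves unlabelled cells untouched and can leave some cells of other types. Day 0 cells were collected right after isolation, and day 2 cells after 2 days of culture with IL-2 and plate-bound antibodies that stimulate the T cell receptor. The labels name anti-CD28, anti-CD29 and anti-CD30 for the 3 libraries of each day 2 group, in the same way for CTL and LIP, while the protocol names anti-CD28 alone. The part of this difference in the results was not tested. Library numbers differ within each group, some recur in another group (94 in CTL and LIP of day 0, 97 in CTL and LIP of day 2, 92 and 93 in LIP of day 0 and CTL of day 2), and the labels do not say that each library came from its own animal, so p-values measure the spread between these libraries only.

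TGF-beta is secreted in a latent form that must be activated before it binds its receptor. The ligand brings the type II receptor (TGFBR2) and the type I receptor (TGFBR1) together, and the type I receptor then phosphorylates SMAD2 and SMAD3, which enter the nucleus with SMAD4. SMAD7 blocks the receptor, SKI and SKIL (also called SnoN) repress SMAD-bound genes, and some of these inhibitors are themselves induced by the pathway. In CD4+ T cells TGF-beta is known for restraining activation and for its role in the differentiation of regulatory and Th17 cells.

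Depth ranged from 6249018 to 7845676 counts for CTL and from 6279986 to 6625831 for LIP cells of day 0. For day 2 it ranged from 8993191 to 9842586 for CTL and from 8691699 to 12866718 for LIP cells. Levels are counts per library total (CPM), scaled over the 12 libraries by the TMM method, and on this scale 3 counts equal 0.269 to 0.452 CPM. The markers of CD4 T cells summed to between 2910 and 5130 CPM, with all 10 detected in each group. Those of B cells summed to between 21.1 and 129 CPM, of macrophages or other myeloid cells to between 4.39 and 15.9 CPM, and of fibroblasts or reticular stroma to between 0.689 and 3.06 CPM. Those of endothelial cells summed to between 56.2 and 209 CPM, and of platelets or megakaryocytes to between 55.2 and 123 CPM. Among libraries of one day, CTL 94 of day 0 lay at 13.4 on the first principal component, within the LIP libraries (7.78 to 18.4) and away from CTL 88 (-18.6) and CTL 89 (-37.0). On day 2, LIP 90 lay at -8.11, away from LIP 96 (44.9) and LIP 97 (39.4), while the CTL libraries lay between -34.9 and -18.1. Results of the members that rest on CTL 94 or LIP 90 are given below with and without that library. On this component each lay nearer the other group than the rest of its own did. Leaving it out therefore favours a difference between LIP and CTL cells, and calls from such fits are given as a description only. In bulk RNA, fewer cells of a type and less RNA per cell cannot be told apart.

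The promoters of Eng and Skil are shown because on day 2 all LIP libraries lay below all CTL libraries for Eng and above them for Skil. Ski, whose LIP libraries also lay below those of CTL, had no match to the sequence searched and is not shown. Both windows hold 250 bases before and 50 bases after the transcript start in GRCm39, with GENCODE starts, written along the gene's strand. The Eng window is chr2:32536290-32536589 (plus strand) and the Skil window is chr3:31148566-31148865 (plus strand), and capitals mark CAGAC on either strand, the half-site that SMAD3 and SMAD4 can bind. The genome is that of C57BL/6J and not of BALB/c.
Eng: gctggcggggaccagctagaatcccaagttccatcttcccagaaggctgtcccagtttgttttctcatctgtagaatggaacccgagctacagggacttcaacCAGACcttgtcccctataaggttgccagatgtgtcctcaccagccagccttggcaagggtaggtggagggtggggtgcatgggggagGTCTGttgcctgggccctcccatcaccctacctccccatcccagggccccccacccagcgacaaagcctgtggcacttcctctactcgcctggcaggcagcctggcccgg
Skil: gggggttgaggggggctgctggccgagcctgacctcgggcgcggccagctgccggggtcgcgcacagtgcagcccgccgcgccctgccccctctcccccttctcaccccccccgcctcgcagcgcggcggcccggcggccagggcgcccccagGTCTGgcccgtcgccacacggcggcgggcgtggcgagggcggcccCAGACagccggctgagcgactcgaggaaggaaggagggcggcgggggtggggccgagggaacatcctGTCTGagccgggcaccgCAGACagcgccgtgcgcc

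The Skil window held 4 matches, those of Eng and Tgfbr2 held 2 each, those of Tgfbr1 and Smad3 held 1 each, and the other members had none. CAGAC was present in 48.4% of 21770 promoters of the same length. The AP-1 sequence TGACTCA, searched on both strands, was in 4.70% of them and in no member's window. A match is a stretch of letters and was not tested as a binding site.

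Per kilobase of exon, the members spanned a wide range of levels. In CTL cells on day 0, Tgfbr2 (41.4 ± 1.97 CPM per kb, SD, n = 3) and Ski (41.3 ± 3.24) stood highest and overlapped. Tgfbr3 (33.8 ± 3.03) came next, followed by Smad7 (22.4 ± 2.80), Tgfb1 (19.5 ± 0.794) and Smad3 (19.3 ± 0.229), whose spreads overlapped. Skil (16.4 ± 1.56) and Tgfbr1 (9.86 ± 1.04) were lower, and Tgfb3 (0.296 ± 0.0858) and Eng (0.156 ± 0.0325) were near the limit of detection. In CTL cells on day 2 the order was led by Tgfb1 (53.3 ± 8.59 CPM per kb), and Ski (22.9 ± 1.52) stood above Skil (19.0 ± 1.08). Tgfbr3 (16.6 ± 1.78) overlapped with Skil, and Tgfbr2 (12.0 ± 1.09), Smad3 (10.1 ± 1.07) and Tgfbr1 (9.28 ± 0.964) formed a run in which neighbours overlapped. Smad7 (4.92 ± 0.320), Eng (1.68 ± 0.168) and Tgfb3 (0.835 ± 0.120) were lowest. In LIP cells on day 2, Skil (23.7 ± 2.30 CPM per kb) stood above Ski (19.5 ± 0.812), and Eng (0.397 ± 0.0622) and Tgfb3 (0.535 ± 0.241) overlapped, so Ski and Skil were in the opposite order to CTL cells.

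**Figure D1:**
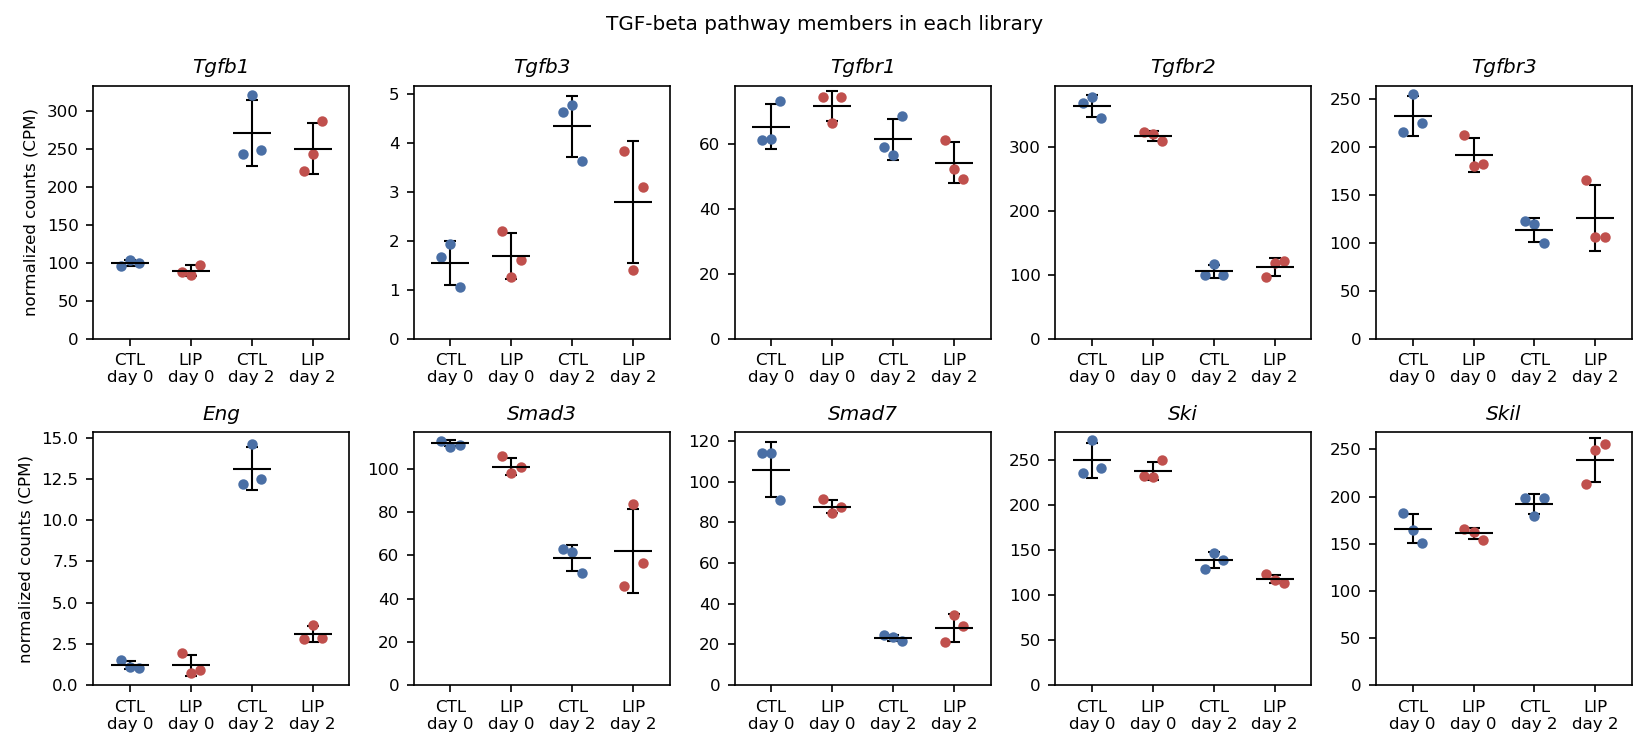
Level of each member in each library, in CPM on an axis that starts at 0, for CTL (blue) and LIP (red) cells on day 0 and day 2. Points are libraries, and the horizontal and vertical bars are the mean and SD of 3 libraries. Tgfb1 was higher and Tgfbr2, Smad7 and Ski were lower in every day 2 library than in any day 0 library, and Eng in the LIP group on day 2 was at most 3.65 CPM against at least 12.2 in the CTL group.

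The first comparison asks how the members differ between resting and stimulated cells. In CTL cells, 8 of the 10 members had an adjusted p under 0.05, 3 higher and 5 lower on day 2, where 70.8% of the 14621 genes tested were called (36.2% higher and 34.7% lower). In LIP cells this was 9 of 10, with 3 higher and 6 lower, where 71.5% of 14310 genes were called (36.1% higher and 35.4% lower). The 2 days did not overlap for 8 members in CTL and 9 in LIP cells, beside 74.7% and 76.4% of all genes. The median log2 fold change of the members was -0.49 in CTL and -0.52 in LIP cells, beside -0.01 and 0.01 over all genes tested.

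Tgfb1, the main TGF-beta ligand of lymphocytes, lies on chromosome 7 from 25386390 to 25404506. Its levels in CTL cells were 95.2, 103 and 99.5 CPM on day 0 and 243, 321 and 249 CPM on day 2. In LIP cells they were 87.9, 83.3 and 97.5 CPM on day 0 and 221, 243 and 287 CPM on day 2. Every day 2 library was above every day 0 library, and CTL and LIP libraries overlapped on both days. The day 2 level was 2.69-fold that of day 0 in CTL (log2 fold change 1.43, 95% CI 1.16 to 1.69) and 2.76-fold in LIP cells (1.47, 95% CI 1.18 to 1.75).

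Tgfb3 is a second ligand of the same receptors and was present at only a few CPM. CTL cells had 1.66, 1.93 and 1.05 CPM on day 0 and 4.65, 4.78 and 3.63 CPM on day 2, so that the days did not overlap. LIP cells had 2.20, 1.27 and 1.60 CPM on day 0 and 3.85, 1.40 and 3.11 CPM on day 2, where LIP 96 lay among the day 0 values. From day 0 to day 2 this was a log2 fold change of 1.46 (95% CI 0.76 to 2.17) in CTL and 0.70 (95% CI -0.27 to 1.66) in LIP cells. In LIP cells leaving out 1 library gave 0.36 to 1.05. The values rest on 8 to 44 counts per library. Exons of Tgfb3 share 179 bases with Ttll5 on the opposite strand, which had 33.4 to 55.6 CPM as group means, and whether the counting used strand is not given in the sources used here.

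Tgfbr2, the receptor that binds the ligand first, showed one of the larger differences. It had 369, 378 and 345 CPM in CTL and 323, 320 and 309 CPM in LIP cells on day 0, and 99.6, 116 and 100 CPM in CTL and 96.3, 119 and 121 CPM in LIP cells on day 2. No day 2 library reached the lowest day 0 library, and the log2 fold change was -1.81 (95% CI -2.03 to -1.59) in CTL and -1.52 (95% CI -1.78 to -1.25) in LIP cells. Tgfbr1, the signalling type I receptor, differed much less. Its levels ranged from 61.2 to 74.4 CPM on day 0 and from 49.1 to 68.7 CPM on day 2, with a log2 fold change of -0.11 (95% CI -0.37 to 0.15) in CTL and -0.42 (95% CI -0.68 to -0.15) in LIP cells. The days overlapped in CTL cells and did not overlap in LIP cells. On the opposite strand, exons of Tgfbr2 share 443 bases with Gm4668 and those of Tgfbr1 share 61 with Gm32435.

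Tgfbr3, or betaglycan, is a co-receptor that presents ligand to TGFBR2. It had 215, 255 and 225 CPM in CTL and 212, 180 and 182 CPM in LIP cells on day 0. On day 2 it had 122, 119 and 99.5 CPM in CTL and 165, 106 and 106 CPM in LIP cells, where LIP 90 was the highest library. Its log2 fold change was -1.05 (95% CI -1.29 to -0.81) in CTL and -0.62 (95% CI -1.03 to -0.21) in LIP cells, where leaving out 1 library gave -0.85 to -0.49. Tgfbr3 shares 297 exon bases on the same strand with the gene model Gm43422, which had 16.1, 16.8, 4.61 and 4.27 CPM as means of CTL and LIP cells on day 0 and CTL and LIP cells on day 2. Its expected counts were not whole numbers in any of the 12 libraries, so the split of reads between the 2 records is an estimate.

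Eng encodes endoglin, a co-receptor best known from endothelial cells, and lies on chromosome 2 from 32535543 to 32574661. It had 1.51, 1.08 and 1.05 CPM in CTL and 1.93, 0.704 and 0.935 CPM in LIP cells on day 0. On day 2 it had 12.2, 14.6 and 12.5 CPM in CTL cells, from 115, 122 and 110 counts. In LIP cells on day 2 it had 2.78, 3.65 and 2.85 CPM, from 31, 39 and 22 counts. The day 2 libraries lay above those of day 0 in both groups, and the day 2 libraries of CTL lay apart from those of LIP. The day 2 level was 10.6-fold that of day 0 in CTL (log2 fold change 3.41, 95% CI 2.85 to 3.96) and 2.56-fold in LIP cells (1.36, 95% CI 0.49 to 2.22).

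Smad3, which carries the signal to the nucleus, had 113, 110 and 111 CPM in CTL and 106, 98.1 and 101 CPM in LIP cells on day 0. On day 2 it had 63.1, 61.5 and 51.7 CPM in CTL and 46.0, 83.7 and 56.5 CPM in LIP cells. All day 2 libraries were below all day 0 libraries, and the LIP libraries of day 2 varied more among themselves than the CTL libraries. Smad3 had a log2 fold change of -0.94 (95% CI -1.18 to -0.71) in CTL and -0.72 (95% CI -1.18 to -0.27) in LIP cells.

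Smad7, the inhibitory SMAD, had 114, 114 and 91.0 CPM in CTL and 91.4, 84.7 and 87.4 CPM in LIP cells on day 0, and 24.8, 23.4 and 21.8 CPM in CTL and 21.0, 34.5 and 28.8 CPM in LIP cells on day 2. The level of CTL 94 on day 0 lay with the LIP libraries. The day 2 level was 0.217 of that on day 0 in CTL (log2 fold change -2.21, 95% CI -2.47 to -1.94) and 0.317 in LIP cells (-1.66, 95% CI -2.05 to -1.27), the largest differences downward among the members in either group.

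Ski and Skil, related corepressors of SMAD-bound genes, went different ways. Ski had 236, 273 and 242 CPM in CTL and 233, 231 and 250 CPM in LIP cells on day 0, and 129, 147 and 139 CPM in CTL and 124, 117 and 114 CPM in LIP cells on day 2. Its log2 fold change was -0.87 (95% CI -1.09 to -0.66) in CTL and -1.03 (95% CI -1.23 to -0.82) in LIP cells. Skil had 183, 164 and 151 CPM in CTL and 166, 162 and 154 CPM in LIP cells on day 0. On day 2 Skil had 198, 179 and 198 CPM in CTL and 213, 249 and 256 CPM in LIP cells. The days overlapped in CTL cells, where the log2 fold change was 0.19 (95% CI -0.03 to 0.41) and turned to -0.08 with upper-quartile scaling. They did not overlap in LIP cells, where it was 0.56 (95% CI 0.32 to 0.80).

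**Figure D2:**
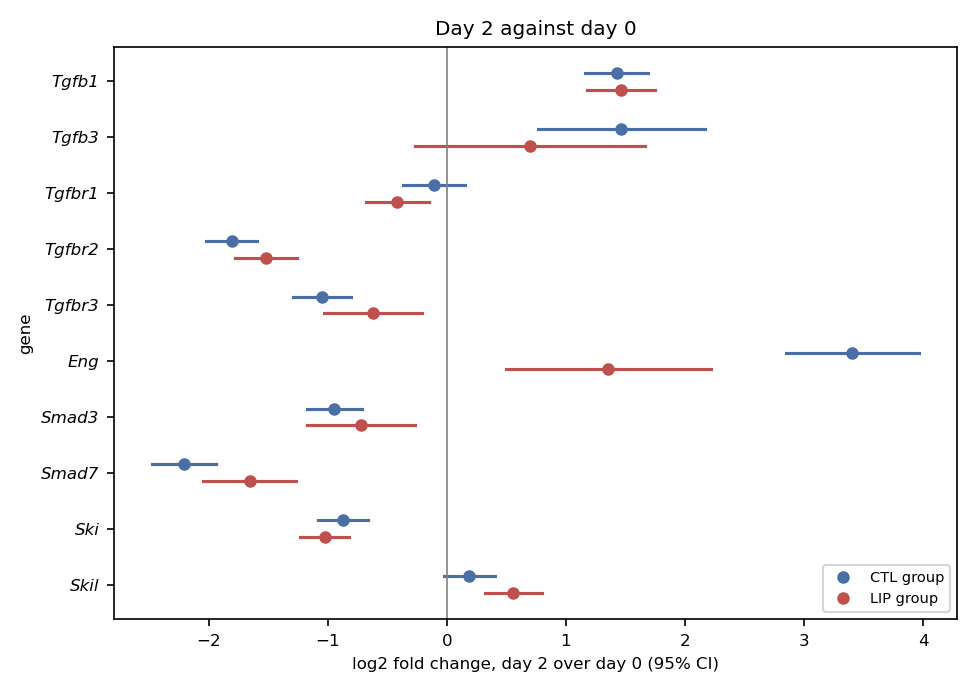
Log2 fold change of day 2 over day 0 for each member in the CTL group (blue) and the LIP group (red). Points are edgeR estimates and lines are 95% confidence intervals. Tgfb1, Tgfb3 and Eng lay to the right of 0, Tgfbr2, Tgfbr3, Smad3, Smad7 and Ski to the left in both groups, and the estimates of Eng in the CTL group (3.41) and the LIP group (1.36) were farthest apart.

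Scaling bears on these values. Upper-quartile scaling moved the median of all genes by -0.27 log2 in CTL and -0.30 in LIP cells, and library size alone by -0.17 and -0.35. The direction of the other 9 members in CTL cells, and of all 10 in LIP cells, was the same under the 4 scalings.

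The second comparison asks whether periodontitis altered the pathway in freshly isolated cells. Of the 9 members tested, 0 had an adjusted p under 0.05 by edgeR's quasi-likelihood test, where 0.427% of 14064 genes were called. At an unadjusted p under 0.05 there were 3 members, beside 13.9% of all genes, and DESeq2 called 0 members, beside 2.9% of 6975 genes. Eng had too few counts on day 0 to pass the filter. The log2 fold change of LIP over CTL was negative for 7 members and positive for 2, with a median of -0.13 beside 0.01 over all genes tested.

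Tgfbr2, Tgfbr3 and Smad3 were lower in every LIP library than in any CTL library on day 0, as were 9.85% of genes tested. Tgfbr2 had a mean of 317 ± 7.79 CPM in LIP and 364 ± 17.3 CPM in CTL cells (SD, n = 3 each), a log2 fold change of -0.19 (95% CI -0.34 to -0.04). Tgfbr3 had a log2 fold change of -0.27 (95% CI -0.46 to -0.08) and Smad3 of -0.13 (95% CI -0.28 to 0.02). Smad7 had 87.8 ± 3.35 CPM in LIP and 106 ± 13.3 CPM in CTL cells, a log2 fold change of -0.27 (95% CI -0.47 to -0.07). Without CTL 94 this was -0.37 (SE 0.08), and 1 member, Smad7, had an adjusted p under 0.05, as did 4.59% of 14343 genes (2.8% lower). Tgfbr1 had a log2 fold change of 0.14 (SE 0.09), and 0.23 (SE 0.09) without CTL 94. The fold changes of Ski (-0.07) and Skil (-0.04) changed sign with the scaling. Without CTL 94, Skil had -0.10 (SE 0.08) and Tgfb3 -0.09 (SE 0.42), against 0.13 (SE 0.38) for Tgfb3 with all libraries. On day 0 the summed level of regulatory T cell markers was higher in every LIP library, as given further on, while the sums of B cell markers (110 to 129 CPM in CTL and 98.9 to 124 CPM in LIP cells), CD8 T or NK cell markers (15 to 22.2 and 19.2 to 26.5 CPM) and naive T cell markers (4060 to 4720 and 3850 to 4160 CPM) overlapped. Their part in these differences was not tested.

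The third comparison asks the same of stimulated cells. On day 2, edgeR called 0 of 10 members and 0 of 14041 genes, so the share called was 0%, against 2 members and 2322 genes (16.5%) at an unadjusted p under 0.05. DESeq2 called 1 member, Eng, beside 485 of 13762 genes (3.52%). The log2 fold change was positive for 5 members and negative for 5.

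Eng showed the largest difference. Its mean was 3.09 ± 0.485 CPM in LIP and 13.1 ± 1.31 CPM in CTL cells (SD, n = 3 each), so the LIP level was 0.236 of that in CTL (log2 fold change -2.08, SE 0.21, 95% CI -2.55 to -1.61). The highest LIP library (3.65 CPM) was below the lowest CTL library (12.2 CPM). When each of the 6 libraries was left out in turn, the log2 fold change ranged from -2.21 to -1.97. It was -1.97 without LIP 90, so the difference was about as large without that library.

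Other cell types were set beside Eng because endoglin is common on endothelial and myeloid cells. Of 10 endothelial markers, Emcn had 0 counts in all 12 libraries, and on day 2 Kdr was at 0 in every CTL library while Cdh5 did not exceed 0.130 CPM and Tek did not exceed 0.568 CPM. The summed level of the endothelial list was 65.0 to 86.0 CPM in CTL and 56.2 to 76.8 CPM in LIP cells on day 2, most of it from Pecam1 (58.5 to 77.7 and 49.4 to 71.7 CPM), which T cells also express. The 3 endothelial markers that passed the filter had log2 fold changes of -0.54 to -0.11 on day 2. Egfl7, one of these, had 3.49, 3.58 and 4.09 CPM in CTL and 2.96, 2.15 and 2.59 CPM in LIP cells on day 2, with no overlap (log2 fold change -0.54, SE 0.26, adjusted p = 0.338 by edgeR), and it rose from day 0 to day 2 by 1.96 (SE 0.33) in CTL and 1.26 (SE 0.37) in LIP cells. The 12 myeloid markers summed to 5.56 to 7.64 CPM in CTL and 4.39 to 6.22 CPM in LIP cells, with 3 at 0 in each group, and the 2 that passed the filter, Cd68 and Spic, had log2 fold changes of -0.58 (SE 0.34) and -0.64 (SE 0.45). The 8 markers of fibroblasts or reticular stroma summed to 1.14 to 3.06 CPM and 0.896 to 2.34 CPM, with 3 at 0 in each group. These sums overlapped between the groups, and the part of such cells in the values of Eng was not tested. The sums of B cell markers were 21.1 to 63.9 CPM in CTL and 21.7 to 71.4 CPM in LIP cells, with medians of 22.8 and 71.3 CPM, and all 7 that were tested had a positive log2 fold change (median 0.99). Those of CD8 T or NK cells summed to 6.36 to 7.52 CPM in CTL and 6.90 to 17.6 CPM in LIP cells, which overlapped, and those of naive T cells to 1390 to 1410 CPM and 1480 to 2030 CPM, which did not overlap. Markers of platelets or megakaryocytes summed to 100 to 123 CPM in CTL and 55.2 to 115 CPM in LIP cells, which overlapped. The part of all these cells in the day 2 differences was not tested either.

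Eng exons share 860 of 7798 bases with Fpgs on the opposite strand. Fpgs, an enzyme of folate metabolism, had 13.3, 12.4 and 17.6 CPM in CTL and 15.5, 10.3 and 8.55 CPM in LIP cells on day 2, and its log2 fold change was -0.34 (SE 0.24, adjusted p = 0.516 by edgeR). From day 0 to day 2 in CTL cells Fpgs had a log2 fold change of 0.24 (SE 0.17, adjusted p = 0.221), against 3.41 for Eng.

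Skil was higher in every LIP library than in any CTL library on day 2, as were 10.9% of genes tested. Its mean was 239 ± 23.3 CPM in LIP and 192 ± 10.9 CPM in CTL cells, a log2 fold change of 0.31 (95% CI 0.03 to 0.59). Ski was lower in every LIP library, as were 10.5% of genes tested, with 118 ± 4.92 against 139 ± 9.19 CPM and a log2 fold change of -0.24 (95% CI -0.49 to 0.00). Without LIP 90 the log2 fold change of Skil was 0.41 (SE 0.10). In that fit 2 members, Eng and Skil, had an adjusted p under 0.05, as did 13.9% of 14453 genes (6.19% lower and 7.74% higher). Smad7 had a log2 fold change of 0.26 (95% CI -0.18 to 0.69) with all libraries and 0.46 (SE 0.14) without LIP 90, and Tgfb3 of -0.66 (95% CI -1.49 to 0.18) and -0.97 (SE 0.39). Smad3 had 0.07 (95% CI -0.42 to 0.55) with all libraries and 0.27 (SE 0.17) without LIP 90. Tgfb1, Tgfbr1, Tgfbr2 and Tgfbr3 lay between -0.19 and 0.13, and all overlapped between the groups. Tgfbr3 had 0.13 (SE 0.19) with all libraries and -0.08 (SE 0.12) without LIP 90, so its sign turned. Without LIP 90, Tgfbr2 had 0.21 (SE 0.11) against 0.08 (SE 0.14) with all libraries, and Tgfb1 had -0.02 (SE 0.15) against -0.12 (SE 0.16). The sign of Tgfbr2 and Smad3 changed with the scaling.

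**Figure D3:**
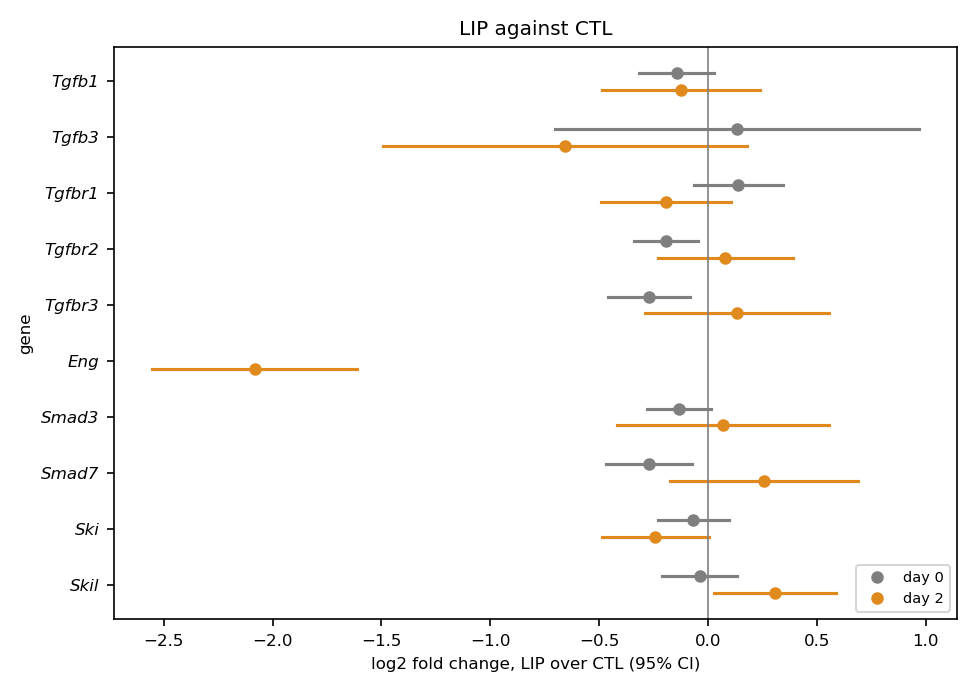
Log2 fold change of LIP over CTL for each member on day 0 (grey) and day 2 (orange). Points are edgeR estimates and lines are 95% confidence intervals, and Eng has no day 0 value because it did not pass the filter on counts. Eng on day 2 (-2.08) lay far to the left of the other estimates, which were all between -0.66 and 0.31.

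The fourth comparison asks whether the difference between LIP and CTL cells changed from day 0 to day 2, which is also whether the response to stimulation differed. Fitted on all 12 libraries, edgeR called 0 of 10 members, where 0.0517% of 15475 genes were called, against 3 members and 15.9% of all genes at an unadjusted p under 0.05, and by DESeq2 1 member and 520 of 12773 genes (4.07%). The difference was -2.05 log2 (SE 0.46) for Eng, 0.54 (SE 0.22) for Smad7 and 0.36 (SE 0.14) for Skil. Without LIP 90 it was -1.97 (SE 0.48), 0.72 (SE 0.17) and 0.44 (SE 0.13), and the number of members with an adjusted p under 0.05 was 3, beside 10.1% of 15823 genes. For Tgfb1 the difference was 0.03 (95% CI -0.35 to 0.42), with a sign that changed with library size alone. For Tgfbr2 it was 0.29 (95% CI -0.03 to 0.60) and for Tgfbr3 0.43 (95% CI -0.06 to 0.91), and without LIP 90 these were 0.39 (SE 0.12) and 0.18 (SE 0.15).

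The wider pathway was described from a list of 84 other genes, of which 83 had a count and 57 passed the filter over the 12 libraries. In CTL cells 45 of the 56 tested changed from day 0 to day 2, 20 upward and 25 downward, where 70.8% of all genes were called. In LIP cells 40 of 54 changed, 18 upward and 22 downward, where 71.5% were called. With upper-quartile scaling 15 were higher and 29 lower in CTL cells and 14 and 29 in LIP cells, and with library size alone 18 and 27 in CTL and 14 and 30 in LIP cells. The median log2 fold change was -0.28 in CTL and -0.24 in LIP cells. The counts of each role below stand beside 36.2% of all genes called higher and 34.7% called lower in CTL cells, and 36.1% and 35.4% in LIP cells. The genes named next are those with the largest changes of each role, each with an adjusted p under 0.05.

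Among other ligands of the superfamily, 4 were tested and 2 changed in each group. Nodal fell in both groups (adjusted p = 5.32e-05 in CTL and 0.000219 in LIP). It had 3.62, 4.45 and 2.37 CPM in CTL and 3.17, 2.53 and 1.87 CPM in LIP cells on day 0, and between 0.119 and 0.454 CPM in all libraries of day 2, around the value of 3 counts. Inhba, which encodes the activin A subunit, rose in both groups (adjusted p = 0.00029 in CTL and 0.000105 in LIP). It had 0.132 to 0.241 CPM in CTL cells on day 0, at or under the value of 3 counts, and 25.2, 8.84 and 2.50 CPM on day 2. In LIP cells it had 0.276, 0.563 and 0.534 CPM on day 0 and 13.9, 12.1 and 4.92 CPM on day 2. No fold is given for Nodal or Inhba because so few reads stand behind one of the days.

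Genes that hold TGF-beta latent or release it came next. In CTL cells 5 of 7 rose and 1 fell, and in LIP cells 3 of 6 rose and 1 fell. The integrin subunits that release active TGF-beta both rose, Itgav by 1.42 log2 (SE 0.19) in CTL and 1.85 (SE 0.23) in LIP cells, and Itgb8 by 2.26 (SE 0.30) and 1.45 (SE 0.13). Itgb8 had 62.2, 49.9 and 29.4 CPM in CTL and 35.5, 38.2 and 34.9 CPM in LIP cells on day 2, so the groups overlapped. Ltbp3, a latent TGF-beta binding protein, rose in CTL cells (adjusted p = 0.000694) from 0.452, 0.241 and 0.789 CPM, around the value of 3 counts, to 4.33, 4.66 and 1.70 CPM. In LIP cells it did not pass the filter. Lrrc32 encodes GARP, which anchors latent TGF-beta on regulatory T cells, and rose by 0.91 (SE 0.19) in CTL and 0.44 (SE 0.18, adjusted p = 0.0481) in LIP cells. The call in LIP cells was lost with upper-quartile scaling (0.15) and library size alone (0.10), and held in 1 of the 6 fits that left out a library, without LIP 90. Nrros, a related anchoring protein, fell by 1.63 (SE 0.12) in CTL and by 1.81 (SE 0.11) in LIP cells.

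Other receptors split in both directions. In CTL cells 3 of 6 rose, Acvr1 by 2.58 (SE 0.39), Bmpr1a by 2.03 (SE 0.27) and Bmpr2 by 0.58 (SE 0.16), which bind activins or bone morphogenetic proteins. Bmpr2 was not called with upper-quartile scaling (0.32, adjusted p = 0.0992). In LIP cells 2 of 6 rose, Bmpr1a by 1.72 (SE 0.28) and Acvr1 by 1.56 (SE 0.27). The activin receptors Acvr1b and Acvr2a fell in both groups, Acvr1b by 1.15 (SE 0.12) in CTL and 1.39 (SE 0.12) in LIP cells, and Acvr2a by 0.98 (SE 0.14) and 1.20 (SE 0.12). Acvr1c fell in LIP cells (adjusted p = 0.00384), from 1.65, 2.81 and 1.34 CPM to 0.179, 0.655 and 0.259 CPM, where 2 of the day 2 libraries were under the value of 3 counts.

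Of 4 other SMADs tested, 3 fell in CTL cells, and 2 fell and 1 rose in LIP cells. Smad4, the shared partner of the receptor-activated SMADs, fell by 1.19 (SE 0.10, adjusted p = 1.21e-06) in CTL and by 1.08 (SE 0.09, adjusted p = 2.11e-05) in LIP cells. Smad5, of the bone morphogenetic protein branch, fell by 1.26 (SE 0.10) and by 1.41 (SE 0.11), and Smad1 fell by 0.59 (SE 0.12) in CTL cells, with a log2 fold change of -0.16 (SE 0.14, adjusted p = 0.344) in LIP cells. Whether single pathway genes changed differently in CTL and LIP cells was tested as in the fourth comparison, where edgeR called 0 of 57, against 13 at an unadjusted p under 0.05 (15.9% of all genes) and 1 by DESeq2. Smad2, which shares its role with Smad3, rose by 0.31 (SE 0.09, adjusted p = 0.0182) in LIP cells, but had 0.00 with upper-quartile scaling and -0.04 with library size alone, and was not called without LIP 92 of day 0. Smad6, the other inhibitory SMAD, had 0 counts in all 6 libraries of day 0 and at most 0.187 CPM on day 2.

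Regulators of the pathway were the largest role, with 23 tested. In CTL cells 7 rose and 13 fell, and in LIP cells 8 rose and 10 fell. The ubiquitin ligases Smurf1 and Smurf2, which target SMADs and the receptors for degradation, fell by 1.20 (SE 0.11) and 1.29 (SE 0.09) in CTL and by 1.12 (SE 0.11) and 1.08 (SE 0.09) in LIP cells. The receptor-SMAD inhibitors Ldlrad4 and Pmepa1 moved in opposite directions. Ldlrad4 fell by 2.28 (SE 0.16) in CTL and 2.01 (SE 0.13) in LIP cells, while Pmepa1 rose by 2.09 (SE 0.15) and 1.94 (SE 0.14). Fkbp1a, which holds the type I receptor inactive, rose by 1.68 (SE 0.09) in CTL and 1.93 (SE 0.13) in LIP cells. Hipk2, a nuclear kinase, rose by 1.56 (SE 0.14) in CTL and 1.51 (SE 0.11) in LIP cells, and Strap, which stabilizes SMAD7 at the receptor, by 1.41 (SE 0.11) and 1.59 (SE 0.15).

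Targets and partners of the pathway in T cells were tested for 12 genes in CTL cells, of which 4 rose and 5 fell, and for 11 genes in LIP cells, of which 3 rose and 5 fell. Cdkn1a, the cell cycle inhibitor p21, had 262, 303 and 215 CPM in CTL and 212, 133 and 128 CPM in LIP cells on day 2, from at most 0.704 CPM on day 0, and had the largest rise of the list (adjusted p = 2.71e-09 in CTL and 6.44e-07 in LIP). Zeb2 rose by 2.46 (SE 0.50) in CTL and 1.82 (SE 0.32) in LIP cells, and Runx3, a transcription factor that works with SMADs, by 0.43 (SE 0.10) and 0.83 (SE 0.13), though in CTL cells it was not called with upper-quartile scaling (0.16). Id3 fell by 0.82 (SE 0.25) and 1.61 (SE 0.39), and Runx1 fell by 0.65 (SE 0.11) in CTL and 0.77 (SE 0.09) in LIP cells. Zeb1 fell by 0.72 (SE 0.12) in CTL cells and had a log2 fold change of -0.23 (SE 0.10, adjusted p = 0.0701) in LIP cells. In LIP cells Itgae, the integrin chain CD103 that TGF-beta induces, fell by 1.81 (SE 0.21), with a log2 fold change of -0.59 (SE 0.27, adjusted p = 0.0695) in CTL cells.

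**Figure D4:**
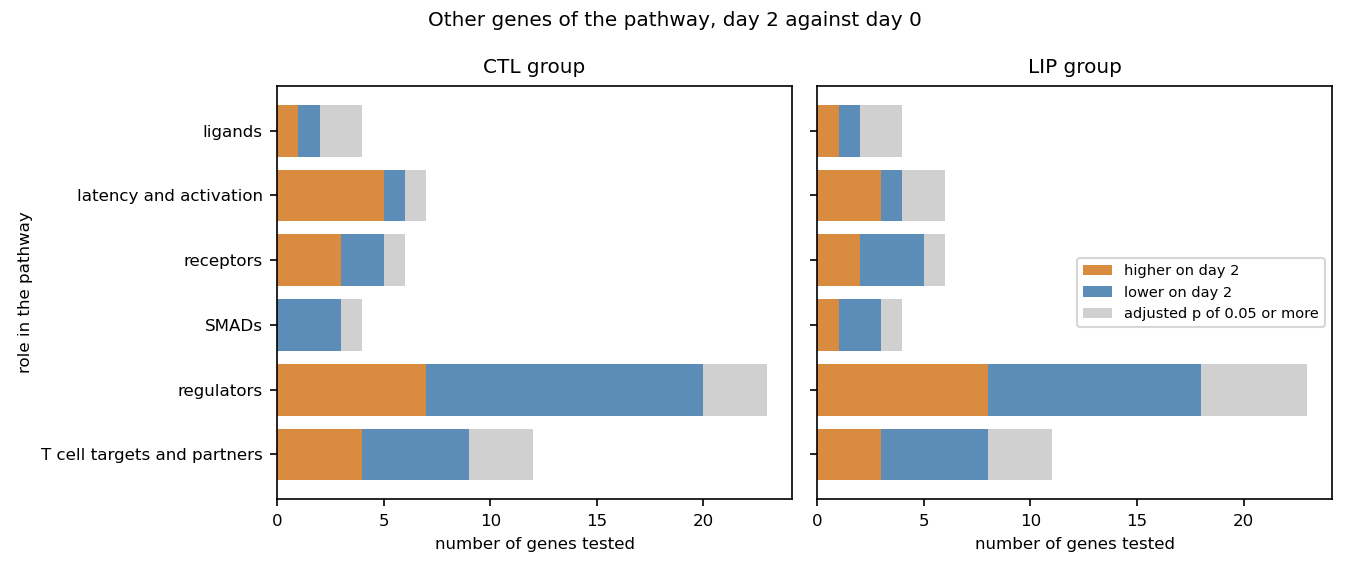
Number of other pathway genes tested in each role, split into those higher on day 2 (orange), lower on day 2 (blue) and with an adjusted p of 0.05 or more (grey), in the CTL group (left) and the LIP group (right). Regulators were the largest role, with 13 lower and 7 higher in the CTL group and 10 lower and 8 higher in the LIP group.

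Between LIP and CTL cells, edgeR called 0 of 50 other pathway genes on day 0 and 0 of 55 on day 2, with 8 and 12 at an unadjusted p under 0.05, beside 13.9% and 16.5% of all genes tested on each day. DESeq2 called 1 and 2, beside 2.9% and 3.52% of all genes. Without CTL 94, 2 of 51 were called on day 0, where 4.59% of all genes were called (2.8% lower), and these were Crebbp (-0.36, SE 0.08, adjusted p = 0.0229) and Zeb1 (-0.36, SE 0.07, adjusted p = 0.0115), both lower in LIP cells. With all libraries they had -0.28 and -0.29. Without LIP 90, 6 of 56 genes were called on day 2, where 13.9% of all genes were called. Among these, Tgif1, a corepressor of SMADs, was higher by 0.87 (SE 0.11, adjusted p = 0.00138), Usp11, a deubiquitinase, by 1.63 (SE 0.21, adjusted p = 0.00152) and Runx3 by 0.37 (SE 0.11, adjusted p = 0.0493). Lower in LIP cells were Cdkn1a, with a log2 fold change of -0.98 (SE 0.15, adjusted p = 0.00336), and Foxp3, the regulatory T cell factor, with -0.46 (SE 0.13, adjusted p = 0.0423). With all libraries the log2 fold changes were 0.59 for Tgif1, 1.26 for Usp11, 0.27 for Runx3, -0.74 for Cdkn1a and -0.44 for Foxp3. The fits without CTL 94 or LIP 90 leave out the library nearest the other group, which favours calls, so nothing is read from these calls.

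Foxp3 had 35.9, 42.3 and 41.7 CPM in CTL and 31.8, 27.9 and 29.4 CPM in LIP cells on day 2, with no overlap. The 9 markers of regulatory T cells summed to 1830 to 2500 CPM in CTL and 2160 to 2360 CPM in LIP cells, which overlapped, and 4 of the 9 were lower in every LIP library, beside 10.5% of all genes tested. On day 0 the same sums did not overlap, at 398 to 570 CPM in CTL and 578 to 625 CPM in LIP cells, and 8 of the 9 had a positive log2 fold change. The part of regulatory T cells in the pathway's values was not tested.

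The genes most like 4 of the members over the 12 libraries were named by Pearson's r of log2 CPM among 15408 genes, as a description. The libraries of both days and of both CTL and LIP cells enter each r, so a shared difference between the days or between CTL and LIP cells raises it. The levels below therefore follow in part from how these genes were chosen. For Eng these were 2900052L18Rik (r = 0.972), Magee1 (0.965) and Micall2 (0.960). Micall2 had 0 CPM in all day 0 libraries, 2.48 ± 0.489 CPM in CTL and 0.419 ± 0.258 CPM in LIP cells on day 2, and Magee1 had 16.3 ± 1.28 and 11.2 ± 0.485 CPM on day 2. For Skil they were Eif1 (0.970), Tmem209 (0.968) and Ngdn (0.964), and Ngdn had 33.4 ± 3.76 CPM in CTL and 65.4 ± 11.2 CPM in LIP cells on day 2. For Smad7 they were Gm16638 (0.996), Ypel1 (0.994) and Rapgef2 (0.993). For Tgfb3 they were Nanos1 (0.944), Atp11a (0.934) and Il4ra (0.934), the receptor chain for interleukin-4, which had 484 ± 22.7 CPM in CTL and 373 ± 91.5 CPM in LIP cells on day 2.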

How the data were processed

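Gene expression was read from 12 RNA sequencing libraries of CD4+ T cells, grouped by their labels. The authors removed ribosomal RNA, sequenced paired reads, trimmed them with Trimmomatic (0.38 per the labels' processing notes) after FastQC 0.11.9, used HISAT2 for alignment to GRCm39, and deposited the expected counts of each gene from RSEM 1.3.0 with Bowtie2, which are estimated counts without normalization. The annotation release and the use of strand in counting are not given in the sources used here. The authors' tables for each day also hold signals, fold changes and p-values, and only their gene symbols were used, for 15174 records. In these tables, 2 signal columns come from libraries with no entry in the labels and were not used here.

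Expected counts (73267 values were not whole) were rounded and fitted in R 4.3.3 with edgeR 4.0.16 (filterByExpr, TMM, quasi-likelihood test) on the groups compared only, and on all 12 libraries for the difference between days. Benjamini-Hochberg adjustment covered all genes tested, and called means an adjusted p under 0.05. SE is the log2 fold change divided by the square root of F. The scripts were tested on simulated data. With 3 against 3 libraries the smallest exact two-sided permutation p is 0.1, so no permutation test was run. Libraries of one group differed by 2.99 to 48.4 chi-square per gene, more than counting error alone gives, so within a group none was the same library deposited again. Libraries of different groups were not compared in this way. Positions, exon lengths and promoters came from GENCODE M39, in which 54749 records were found, and Python 3.11.15 with pandas 2.3.3, numpy 2.4.6 and matplotlib 3.10.9 read them. The markers Hbb-bs and Ahsp were not found. For CPM of log2 likeness a prior count of 2 was used.

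The members, lists and tests were chosen with earlier results of these data known. All members were named, and of the other pathway genes up to 3 called genes with the largest change per role, direction and comparison; genes named without CTL 94 or LIP 90, and those with few counts or shown as levels, were chosen after their values were seen. Some genes of the list enter the counts but are not reported here by name. Alternatives were other scalings, DESeq2 1.42.0, other count filters, one fit of all libraries, and leaving out each library.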

Additional observations from a re-analysis of the deposited data

How the results depend on the processing

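The number of genes called between LIP and CTL cells depended on the settings. The members' log2 fold changes also moved when 1 library was left out, on day 2 from -0.19 to 0.27 for Smad3, from -0.08 to 0.26 for Tgfbr3, from 0.09 to 0.46 for Smad7, from -0.97 to -0.31 for Tgfb3 and from -0.23 to 0.02 for Tgfb1, and on day 0 from -0.10 to 0.33 for Tgfb3 and from -0.10 to 0.03 for Skil. No paired analysis was possible because the groups compared share at most 1 replicate number. On day 0, 60 genes were called, against 202 with DESeq2, 645 with no filter on low counts and 12 with all 12 libraries in one fit, and 13 to 658 when 1 library was left out. Of other pathway genes DESeq2 called 1 and no filter 3 (0 to 2 with 1 library left out), and of members 0 to 1 were called with 1 library left out. The 1 member was called without CTL 94, where 4.59% of all genes were called. On day 2, 0 genes were called, against 1 with library size alone, 485 with DESeq2, 662 with no filter, 1 with at least 10 counts in every library and 775 with all 12 libraries in one fit, and 0 to 2014 when 1 library was left out. In each of these 5 settings the members called were 1, which was Eng (log2 fold change -2.17 to -2.05), beside 3.52% of all genes with DESeq2. With 1 library left out, 0 to 2 members were called. The 2 members were called without LIP 90, where 13.9% of all genes were called. Of other pathway genes 2 (DESeq2), 3 (no filter) and 3 (one fit) were called, and 0 to 6 with 1 library left out. For the difference between the days, 8 genes were called, against 97 with library size alone, 520 with DESeq2 and 815 with no filter, each with 1 member called, Eng, and 1 to 1596 with 1 library left out (members 0 to 3, other pathway genes 0 to 5). Of other pathway genes 1 (DESeq2) and 3 (no filter) were called, and of all genes DESeq2 called 4.07%. The 3 members were called without LIP 90, where 10.1% of all genes were called. The highest values of each range came without CTL 94 on day 0 and without LIP 90 elsewhere. The causes were not tested. From day 0 to day 2, the counts of genes, members and other pathway genes stayed within 1.5 times under every alternative run. Leaving out 1 library in turn gave 8 of 10 members called in CTL and 8 to 9 in LIP cells. With all libraries 70.8% and 71.5% of all genes were called, so nothing is read from these counts. In LIP cells Eng was not called without LIP 94 of day 0. Tgfbr3 was not called without LIP 92 of day 0, LIP 96 or LIP 97 of day 2, and Tgfb3 was called without LIP 96. Depth limits Eng and Tgfb3 on day 0, at 5 to 16 counts per library.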
